A study of Mus musculus with 18 samples.

Results

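The mast cell and basophil proteases Mcpt8, Prss34, Cma1, Gzmb and Cpa3 and the 3 subunits of the high-affinity IgE receptor, Fcer1a, Ms4a2 and Fcer1g, were followed in single-cell RNA-seq of mouse bone marrow. They were chosen by name, as 8 of the 17757 genes in the deposited table of UMI counts, where a UMI (unique molecular identifier) tag stands for 1 captured RNA molecule. The cells were the lineage-negative, cKit-positive (LK) fraction, which holds stem and progenitor cells, sorted from female mice labelled C57BL/6 (C57BL/6J in the study's methods). The 3 young mice (mice 1, 3 and 5) were 8 weeks old and the 3 aged mice (mice 2, 4 and 6) were 72 weeks old, each with a single 10x Genomics V2 library. The same cDNA was also read with PacBio long reads. The questions were how far the 8 genes were found in the same cells, whether Mcpt8 and Cma1 excluded each other, how much the mice differed, and how much of the signal lay in other lineages.

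Mast cells and basophils store proteases in their granules and carry IgE on their surface. Both lineages are thought to arise from shared myeloid progenitors in the bone marrow, and in the mouse some of the proteases are used to tell them apart. Cross-linking of the receptor by antigen-bound IgE makes the granules empty. Mcpt8 (mast cell protease 8) and Prss34 (mast cell protease 11) are known as basophil proteases in spite of the older name. Cma1 encodes a mast cell chymase, Gzmb the serine protease granzyme B, and Cpa3 carboxypeptidase A3, which trims peptides from their C-terminal end. Fcer1a encodes the IgE-binding alpha chain, Ms4a2 the beta chain, which amplifies the signal, and Fcer1g the signalling gamma chain, which other immune receptors share.

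Cma1, Mcpt8 and Gzmb are neighbours in the genome. In the GRCm38 build Cma1 lies at chr14:55941453-55944661, Mcpt8 at chr14:56082166-56085197 and Gzmb at chr14:56258838-56262260, all on the minus strand, and the main transcript of each has 5 exons. They belong to a locus of 15 chymase and granzyme genes over 321 kb, with 137 kb between Cma1 and Mcpt8 and 174 kb between Mcpt8 and Gzmb. Ctsg (cathepsin G) is the only other gene of that locus with UMI counts here, and the remaining 11 were not analysed here. Prss34 stands apart at chr17:25298394-25300165 on the plus strand. Cpa3 lies at chr3:20215620-20242181, Fcer1a at chr1:173221284-173227214, Fcer1g at chr1:171229572-171234365 and Ms4a2 at chr19:11616957-11623719, all on the minus strand. The deposited long-read annotation added 4 transcripts to Prss34, 3 to Cpa3 and 2 to Fcer1a, and none to the other members.

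The sequence just before the start of the 4 proteases that separate the cells below is given here, since Mcpt8 shared cells with Prss34, and Cma1 with Gzmb. The windows are from RefSeq (GRCm38.p6), up to 250 bases long, 5′ to 3′ on the strand of the gene, and end at the annotated start, leaving out bases of any annotated exon. They cover chr14:56085274-56085447, chr17:25298144-25298393, chr14:55944676-55944925 and chr14:56262335-56262584, in the order printed. Capitals mark GATAA, a core read by GATA factors, or TGTGGT, a core read by RUNX factors, on either strand.
Mcpt8: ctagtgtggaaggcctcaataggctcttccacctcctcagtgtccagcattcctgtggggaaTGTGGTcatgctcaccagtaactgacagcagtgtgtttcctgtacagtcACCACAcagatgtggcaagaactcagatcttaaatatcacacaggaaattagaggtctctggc
Prss34: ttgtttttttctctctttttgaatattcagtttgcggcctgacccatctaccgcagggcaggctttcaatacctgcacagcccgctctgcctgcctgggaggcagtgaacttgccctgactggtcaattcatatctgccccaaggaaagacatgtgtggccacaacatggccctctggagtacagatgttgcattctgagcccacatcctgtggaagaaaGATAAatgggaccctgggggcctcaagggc
Cma1: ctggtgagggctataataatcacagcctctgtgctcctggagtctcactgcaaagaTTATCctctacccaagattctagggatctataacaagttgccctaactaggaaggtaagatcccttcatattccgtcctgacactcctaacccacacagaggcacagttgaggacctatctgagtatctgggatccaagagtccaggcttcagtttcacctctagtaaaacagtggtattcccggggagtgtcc
Gzmb: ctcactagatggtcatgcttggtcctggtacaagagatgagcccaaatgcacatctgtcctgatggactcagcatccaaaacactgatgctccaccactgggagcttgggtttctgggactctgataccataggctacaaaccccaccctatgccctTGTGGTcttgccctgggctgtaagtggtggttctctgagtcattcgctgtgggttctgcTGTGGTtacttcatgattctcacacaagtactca
Mcpt8 and Gzmb each held 2 matches to TGTGGT and none to GATAA, while Prss34 and Cma1 each held 1 match to GATAA and none to TGTGGT. Neither motif therefore followed the pairs of genes that shared cells. Over the 250 bases before the start, 5 of the 8 members held GATAA, as did 22.6% of 32851 such windows in the genome, and 4 of 8 held TGTGGT, as did 14.05% of all windows. Ms4a2 held 3 matches to GATAA, and Fcer1g held neither motif.

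In all, 8436 cells passed the authors' filters, 681 to 1919 of each mouse, with 3628043 to 17585424 UMIs a library and a median of 4172 to 8498 UMIs a cell. Of the cell barcodes, 42 occurred in 2 or more libraries. Mice 1 and 2 stood apart from the other 4 in Mcpt8 and Prss34, so results are also given without them. The labels name no batch that would join these 2 mice. The level of a gene is given below in CPM, its UMIs for every 1000000 UMIs of the cells named, so a CPM is not comparable between genes.

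The cells were clustered with the 8 members left out of the gene set. Of 19 clusters, 3 carried mast cell and basophil markers and are called mast/basophil-like, with 976 cells in all. They numbered 268, 184, 112, 188, 170 and 54 in mice 1 to 6, or 16.2, 10.9, 7.31, 9.80, 17.8 and 7.93% of the cells, and the ages overlapped (two-sided exact permutation test, p = 0.40). Cluster 6 held 503 cells and cluster 11 held 309, the latter with cycling genes, and in both 17 of 17 markers measured were higher than in the other cells. Cluster 15 held 164 cells of lower depth, at 0.49 of the median UMIs of their libraries, led by Scin, Id2, Lmo4 and the T cell receptor gene Trbc1, with 15 of 17 markers higher.

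Cluster 15 also held lymphocyte markers, which bears on Gzmb because cytotoxic lymphocytes make it too. All 9 of 9 T and NK cell markers were higher there than in other cells, at 756 CPM in sum. B and plasma cell markers stood at 1929 CPM in sum, but only 1 of 8 was higher there than in other cells. Of the 164 cells, 12 held 3 or more UMIs of the T and NK cell markers, 9 of them from mouse 2. Those 12 cells had Gzmb at 27.1 CPM and no UMI of Cma1. The remaining 152 cells had Gzmb at 3096 CPM, Cpa3 at 2528 CPM and all 256 UMIs of Cma1 in the cluster, with the T and NK cell markers at 14.6 CPM in sum. The 17 cells with 3 or more UMIs of the B and plasma cell markers had Gzmb at 2848 CPM and Cma1 at 546 CPM, and the other 147 cells had them at 2908 and 425 CPM. Gzmb was thus low in the cells with T and NK cell markers, and at a like level with and without B and plasma cell markers.

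Apart from Fcer1g, the members were concentrated in the mast/basophil-like cells. These cells were 976 of 8436, yet held 97.4% of all UMIs of Cma1, 96.1% of Prss34, 93.9% of Gzmb, 92.7% of Fcer1a, 90.5% of Mcpt8, 89.2% of Ms4a2 and 70.2% of Cpa3. Fcer1g had 31.1% of its UMIs there and 32.1% in GMP/monocyte-like cells, where 90.9% of cells had a UMI.

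**Figure D1:**
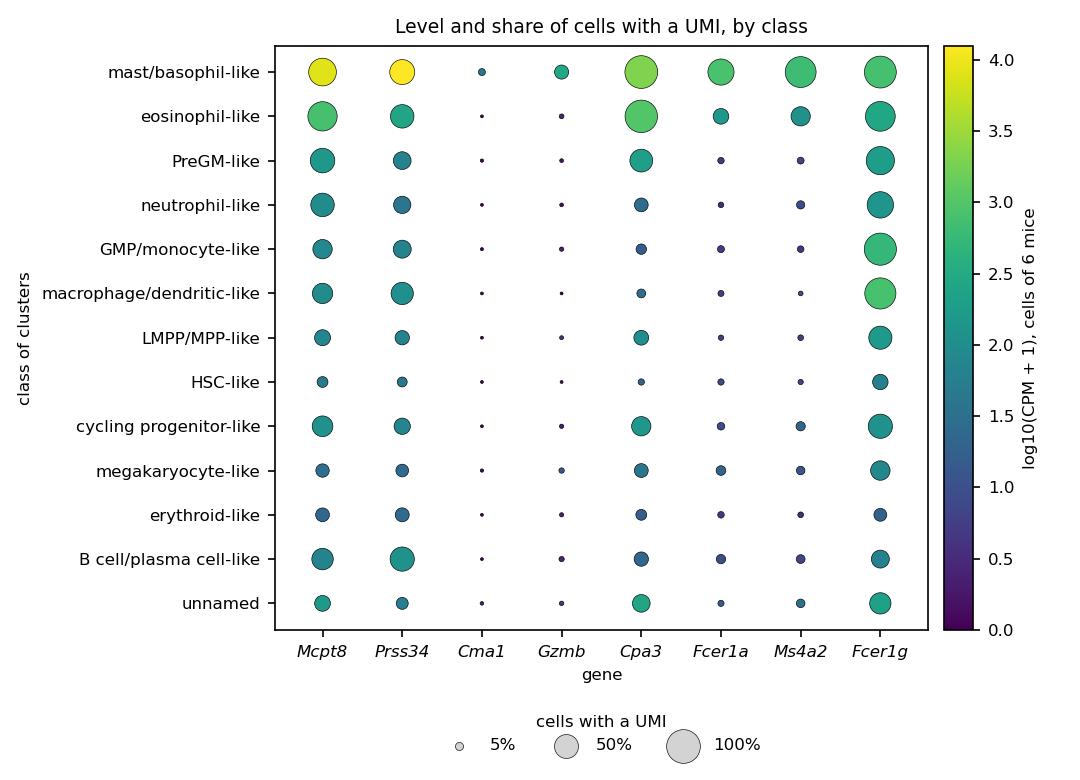
Each circle gives 1 gene in 1 class of clusters over the cells of 6 mice; colour is log10(CPM + 1) and area is the share of cells with a UMI. The mast/basophil-like row is the brightest for every gene except Fcer1g, which stands at 785 CPM there and at 797 CPM in macrophage/dendritic-like cells.

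The basophil proteases Mcpt8 and Prss34 differed widely between mice. Within mast/basophil-like cells, Mcpt8 stood at 13084, 15029, 1109, 1483, 4579 and 2727 CPM in mice 1 to 6. Prss34 stood at 25755, 21514, 832, 1470, 5705 and 3194 CPM in the same mice. For both genes mice 1 and 2, one young and one aged, were highest, mouse 5 followed, and mice 3 and 4 were lowest. The order was the same within cluster 6 alone, where Prss34 ran from 1566 CPM in mouse 3 to 32327 CPM in mouse 1 and was found in 34.8% and 88.8% of the cells.

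Both basophil proteases were far lower in cluster 15. Prss34 had 16645 CPM in cluster 6, 10792 CPM in cluster 11 and 30.8 CPM in cluster 15, where it had no UMI in mice 3, 4 and 6. Mcpt8 had 10201, 6588 and 1023 CPM in the same clusters. In cluster 15 Mcpt8 varied between mice as it did elsewhere, at 2597, 2072, 16.4, 352, 933 and 77.3 CPM in mice 1 to 6.

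Gzmb and Cma1 showed the opposite arrangement. Gzmb had 20.1 CPM in cluster 6, 4.99 CPM in cluster 11 and 2902 CPM in cluster 15. Cluster 15 was high in every mouse, at 2790, 2411, 1708, 2713, 3767 and 2936 CPM in mice 1 to 6, so Gzmb in these cells varied far less between mice than Prss34 did in cluster 6. Over all LK cells Gzmb stood at 21.9, 18.0, 15.1, 26.9, 94.7 and 32.8 CPM. Mouse 5 was highest, and mouse 5 also had the most cells in cluster 15, 48 of its 956, against 11 to 40 cells in the other mice.

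Cma1, the mast cell chymase, was the rarest member. It had 271 UMIs in 42 of 8436 cells, 31 of them in cluster 15, and 57.6% of the UMIs came from 5 cells. Cluster 15 had it at 565, 414, 32.8, 106, 875 and 206 CPM in mice 1 to 6. Mouse 5 alone gave 151 of the 271 UMIs, or 55.7%, so values of Cma1 rest largely on that animal.

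Cpa3, which both lineages make, was the one protease present throughout. It was found in 94.3% of mast/basophil-like cells, with 2250 CPM in cluster 6, 1657 CPM in cluster 11 and 2372 CPM in cluster 15. By mouse it stood at 2375, 2805, 997, 1264, 2172 and 1574 CPM in mast/basophil-like cells. Mouse 3 was again lowest, but the mice lay much closer together than for Prss34.

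The receptor subunits divided in another way. Fcer1a, the chain that binds IgE, stood at 968 CPM in cluster 6, 827 CPM in cluster 11 and 311 CPM in cluster 15, and Ms4a2 at 784, 644 and 330 CPM. Fcer1g had its highest level in cluster 15, at 1508 CPM against 900 CPM in cluster 6 and 491 CPM in cluster 11. UMIs of all 3 subunits were found together in 494 of 976 cells (50.6%), which was 60.8% of cluster 6, 48.5% of cluster 11 and 23.2% of cluster 15. Outside these clusters the eosinophil-like cells came next, with 13.6% of 81 cells, and no other class was above 1.74%.

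Fcer1a had a wider range between mice than the other subunits. In mast/basophil-like cells it stood at 793, 1908, 127, 597, 390 and 730 CPM in mice 1 to 6, with mouse 2 highest and mouse 3 lowest. Ms4a2 stood at 801, 793, 437, 502, 739 and 682 CPM, and Fcer1g at 1042, 921, 456, 535, 809 and 543 CPM. The ages overlapped for all 3 subunits.

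Among the 976 mast/basophil-like cells, Mcpt8 and Prss34 were mostly found together. Mcpt8 was found in 656 cells, Prss34 in 531 and both in 483, so 91.0% of cells with Prss34 also had Mcpt8. The Spearman correlation of their UMIs over cells was 0.84, and 0.60 to 0.90 within single mice. These correlations describe cells of 6 libraries and share the depth of each cell. All 178 cells with 100 or more UMIs of Mcpt8 had Prss34.

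Gzmb and Prss34 were seldom found together. Both were present in 33 cells, against 89.8 if the genes had been independent, and the odds ratio was below 1 in each of the 6 mice, between 0.068 and 0.256. Mcpt8 and Gzmb shared 74 cells, against 110.9 if independent. Of the 75 cells with 10 or more UMIs of Gzmb, 72 had Cpa3, 15 had 10 or more UMIs of Mcpt8 and 1 had 10 or more UMIs of Prss34. Within mast/basophil-like cells Cma1 lay almost wholly in the cells with Gzmb. There 32 of 35 cells with Cma1 had Gzmb (91.4%), against 14.1% of cells without Cma1. All 35 had Cpa3. But 31 of the 35 lay in cluster 15, where 82.3% of all cells had Gzmb and 84.1% had Cpa3. Over all LK cells, 32 of 42 cells with Cma1 had Gzmb (76.2%).

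Mcpt8 and Cma1 were not exclusive. Of all 42 LK cells with a UMI of Cma1, 29 also had Mcpt8 (69.0%, exact 95% interval 52.9 to 82.4%), while 33.7% of cells without Cma1 had it. By mouse the counts were 7 of 8, 5 of 5, 2 of 6, 2 of 6, 12 of 16 and 1 of 1 cells in mice 1 to 6. Among cells without Cma1, 50.3, 51.8, 14.4, 24.7, 31.3 and 20.3% had Mcpt8 in the same mice. Within mast/basophil-like cells the share was 74.3% of cells with Cma1 and 67.0% of those without, and within cluster 15 it was 71.0% and 27.1%. Pooled over mice, Mcpt8 was in neither set less frequent in the cells with Cma1. By mouse it was less frequent in mouse 4 within mast/basophil-like cells (33.3% against 51.6%). The same held in mouse 3 within cluster 15 (0% against 6.67%), which had 1 cell with Cma1. Every other mouse went the other way in each set.

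A higher minimum lowered the share in both kinds of cell. When 3 or more UMIs were asked of both genes, 10 of 18 cells with Cma1 had Mcpt8 (55.6%, interval 30.8 to 78.5%), against 53.3% of the other mast/basophil-like cells. At 10 or more UMIs of both, 3 of 8 had it (37.5%, interval 8.52 to 75.5%), against 41.3%. Within cluster 15 the share stayed higher in the cells with Cma1. It was 52.9% against 13.6% at 3 UMIs, and 37.5% against 10.3% at 10 UMIs. None of the 178 cells with 100 or more UMIs of Mcpt8 had a UMI of Cma1, which allows a share of up to 1.69%. All 178 lay in clusters 6 and 11, where 4 of 812 cells (0.49%) had Cma1, so the count of 0 does not set them apart. Their Gzmb level was 9.41 CPM and their Prss34 level 54164 CPM.

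Fewer cells with Cma1 had Prss34 than had Mcpt8. Of the 42 cells with Cma1, 7 had Prss34 (16.7%, interval 6.97 to 31.4%), against 24.9% of cells without Cma1. Within mast/basophil-like cells 14.3% of cells with Cma1 had Prss34, against 55.9% of those without. Of the 18 cells with 3 or more UMIs of Cma1, 0 had 3 or more UMIs of Prss34 (upper bound of the exact interval 18.5%). But 17 of these 18 lay in cluster 15, where 9.15% of all 164 cells had Prss34 and 0% had 3 or more UMIs. The low counts thus do not set the cells with Cma1 apart from their cluster.

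The 18 cells with 3 or more UMIs of Cma1 had a common make-up. All 18 had Gzmb, Cpa3 and Fcer1g, 16 had Mcpt8, 9 had Fcer1a and 8 had Ms4a2, and 17 of them lay in cluster 15. Of all cells of that cluster, 82.3% had Gzmb, 84.1% Cpa3, 96.3% Fcer1g, 35.4% Mcpt8, 40.9% Fcer1a and 52.4% Ms4a2. The 3 cells with most Cma1, with 63, 37 and 24 UMIs, had 4, 75 and 41 UMIs of Mcpt8, 24, 15 and 12 UMIs of Gzmb and 0 of Prss34. None of the 18 was among the 4% of cells with the highest doublet scores. The caller behind these scores was taken not to have worked, so this does not settle whether each was a single cell. The 10 cells with 3 to 9 UMIs of Cma1 had Mcpt8 at 3019 CPM, and the 8 cells with 10 or more had it at 5171 CPM, where 2 cells held 116 of the 139 UMIs and the other 6 stood at 1080 CPM. Erythroid-like cells of the 6 mice had it at 3.44 to 70.1 CPM.

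**Figure D2:**
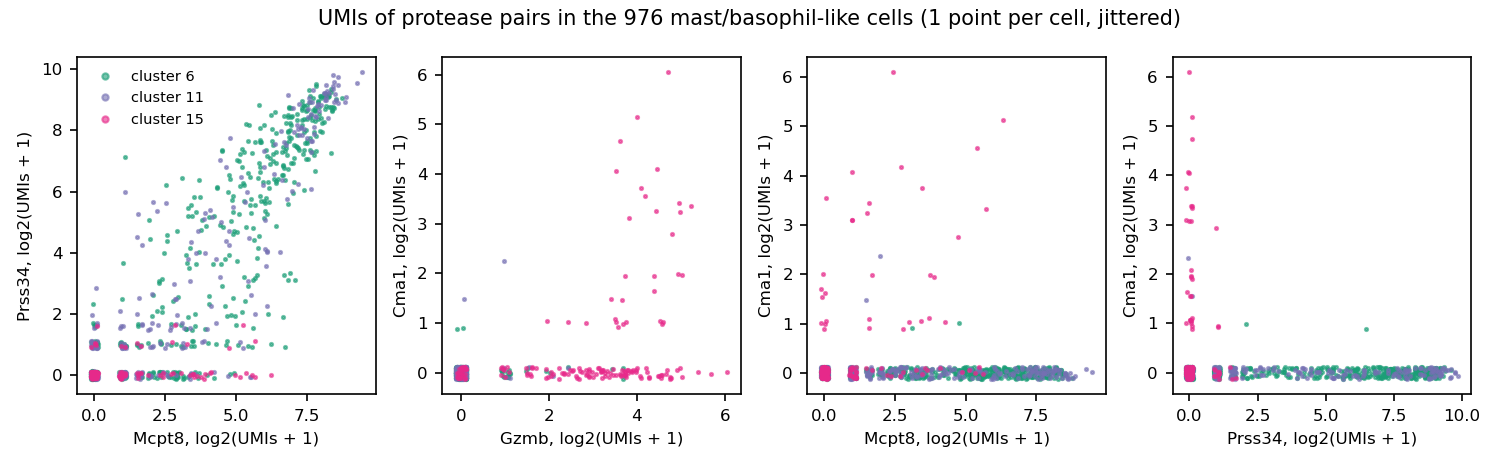
Each point is 1 of 976 mast/basophil-like cells, coloured by cluster, with both axes in log2(UMIs + 1) and a small jitter. Mcpt8 and Prss34 are high in the same cells of clusters 6 and 11, Cma1 lies with Gzmb in cluster 15, cells with Cma1 spread along the Mcpt8 axis up to 75 UMIs, and all but 1 of them, with 83 UMIs, have at most 3 UMIs of Prss34.

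Background in erythroid-like cells was highest in the mice with most of each protease. Erythroid-like cells, which should not make either protease, had Mcpt8 at 53.6, 70.1, 6.83, 3.44, 15.7 and 15.02 CPM in mice 1 to 6, with a UMI in 38.3, 52.5, 2.98, 5.02, 13.9 and 12.8% of cells. Their Prss34 stood at 85.0, 71.6, 4.10, 2.87, 14.7 and 6.26 CPM, with a UMI in 53.3, 48.4, 2.23, 4.57, 11.1 and 5.32% of cells. Mice 1 and 2, highest in the mast/basophil-like cells, were thus also highest here. Among the other mice the order was not kept, as mouse 3 had more CPM of both than mouse 4 here but less in the mast/basophil-like cells. With each cell thinned to 2000 UMIs, 4.23% of the 1113 erythroid-like cells had Mcpt8 and 5.05% had Prss34, against 16.0 and 16.5% unthinned. Their median depth was 7407 UMIs, and that of mast/basophil-like cells 5920. Over all LK cells of mice 1 and 2, 53.0 and 48.9% had a UMI of Prss34, about the erythroid-like share, so a UMI of Prss34 in those mice did not mark a basophil.

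The other members differed in how much of them was found in erythroid-like cells. In the 1113 erythroid-like cells Cma1 had no UMI, which allows a share of up to 0.27%, Gzmb was in 0.81% of cells, Ms4a2 in 2.16% and Fcer1a in 3.05%. Cpa3 was in 9.70% and Fcer1g in 13.9%, the latter close to the share for Mcpt8.

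PreGM-like cells, progenitors marked by Elane and Mpo, had Mcpt8 at 145, 141, 150, 130, 232 and 74.5 CPM in mice 1 to 6, above the erythroid-like level in all 6 mice. Prss34 in the same cells stood at 94.1, 90.8, 1.71, 6.33, 198 and 8.27 CPM. The value of mouse 5 rested on 1 cell, which held 158 of its 174 UMIs of Prss34 and 130 of its 204 UMIs of Mcpt8 and had one of the highest 4% of doublet scores. Without that cell, an alternative chosen after seeing the data, mouse 5 had Prss34 at 18.5 CPM and Mcpt8 at 85.6 CPM, so mice 1 and 2 were highest in Prss34 here too.

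The ratio of Prss34 to Mcpt8 UMIs was 0.65, 0.64, 0.01, 0.05, 0.85 and 0.11 in PreGM-like cells of mice 1 to 6, and 0.22 in mouse 5 without that cell. It was 1.97, 1.43, 0.75, 0.99, 1.25 and 1.17 in mast/basophil-like cells and 1.59, 1.02, 0.60, 0.83, 0.94 and 0.42 in erythroid-like cells. The erythroid-like ratio of mice 3 to 6 rests on 12 to 16 UMIs of Mcpt8 a mouse. The PreGM-like ratio was the lowest of the 3 in each mouse. The part of free RNA in the Mcpt8 of these cells was not tested.

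Thinned to 2000 UMIs a cell, Mcpt8 was found in 21.2, 25, 11.6, 15.1, 15.6 and 11.3% of PreGM-like cells, against 9.64, 15, 1.49, 0, 0 and 7.45% of erythroid-like cells. In mice 3 and 5 much of it lay in few cells, as 5 cells gave 61.7 and 72.1% of the Mcpt8 UMIs there, with up to 82 and 130 UMIs in a cell. In the other 4 mice 5 cells gave 11.1 to 40.7%. Neutrophil-like cells had Mcpt8 at 80.5, 117, 52.6, 52.5, 212 and 247 CPM and Prss34 at 77.1, 72.7, 2.92, 0.94, 6.42 and 0 CPM, so there too Mcpt8 was present in mice with few UMIs of Prss34.

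Cpa3 was also found outside the mast/basophil-like cells. It stood at 199 CPM in PreGM-like cells, with a UMI in 45.3% of them, and between 143 and 264 CPM in each of the 6 mice, against 15.2 CPM in erythroid-like cells. The 81 eosinophil-like cells had Cpa3 at 985 CPM in 92.6% of cells, Mcpt8 at 782 CPM and Prss34 at 256 CPM. In that cluster 11 of 17 mast and basophil markers were higher than in other cells beside 6 of 7 eosinophil markers, and the part of cells of mixed identity in these levels was not tested.

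**Figure D3:**
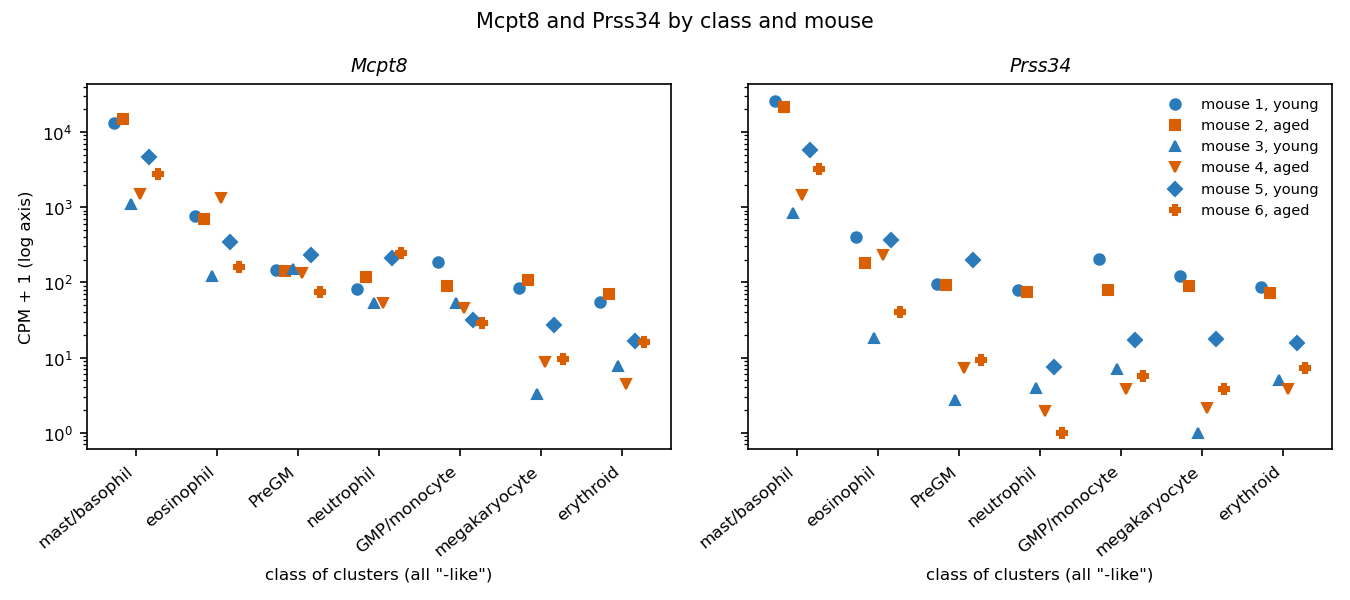
Points give CPM + 1 on a log axis for each mouse in 7 classes of clusters. Mcpt8 in PreGM-like cells lies between 74.5 and 232 CPM in all 6 mice, while Prss34 there runs from 1.71 CPM in mouse 3 to 94.1 CPM in mouse 1, with mouse 5 at 198 CPM through 1 cell and at 18.5 CPM without it.

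Summed over all LK cells, the members differed in how far the mice spread. Prss34 stood at 3543, 2338, 62.3, 136, 860 and 267 CPM in mice 1 to 6, a range of 56.8-fold, with a coefficient of variation of 119%. Mcpt8 stood at 1859, 1686, 120, 182, 747 and 264 CPM, a range of 15.5-fold, and Fcer1a at 109, 213, 9.70, 56.8, 58.8 and 69.7 CPM, a range of 21.9-fold. Among the 6955 genes with a mean of at least 10 CPM, Prss34 had the 16th and Mcpt8 the 26th largest coefficient of variation, Gzmb (85.9%) the 33rd and Fcer1a (80.9%) the 37th, where the median gene had 13.8%. The spread of Ms4a2 (45.5%), Cpa3 (39.4%) and Fcer1g (26.5%) was lower, and mouse 3 was lowest for all 3. Cma1 had the largest coefficient of variation of the members, 143% over a range of 22.9-fold. Its mean was below 10 CPM, so it was not ranked. In such sums fewer cells of a type and less RNA per cell cannot be told apart. The sums rested on few cells, as the 42, 30, 11, 13, 14 and 4 cells with most Mcpt8 held 50% of its UMIs in mice 1 to 6.

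**Figure D4:**
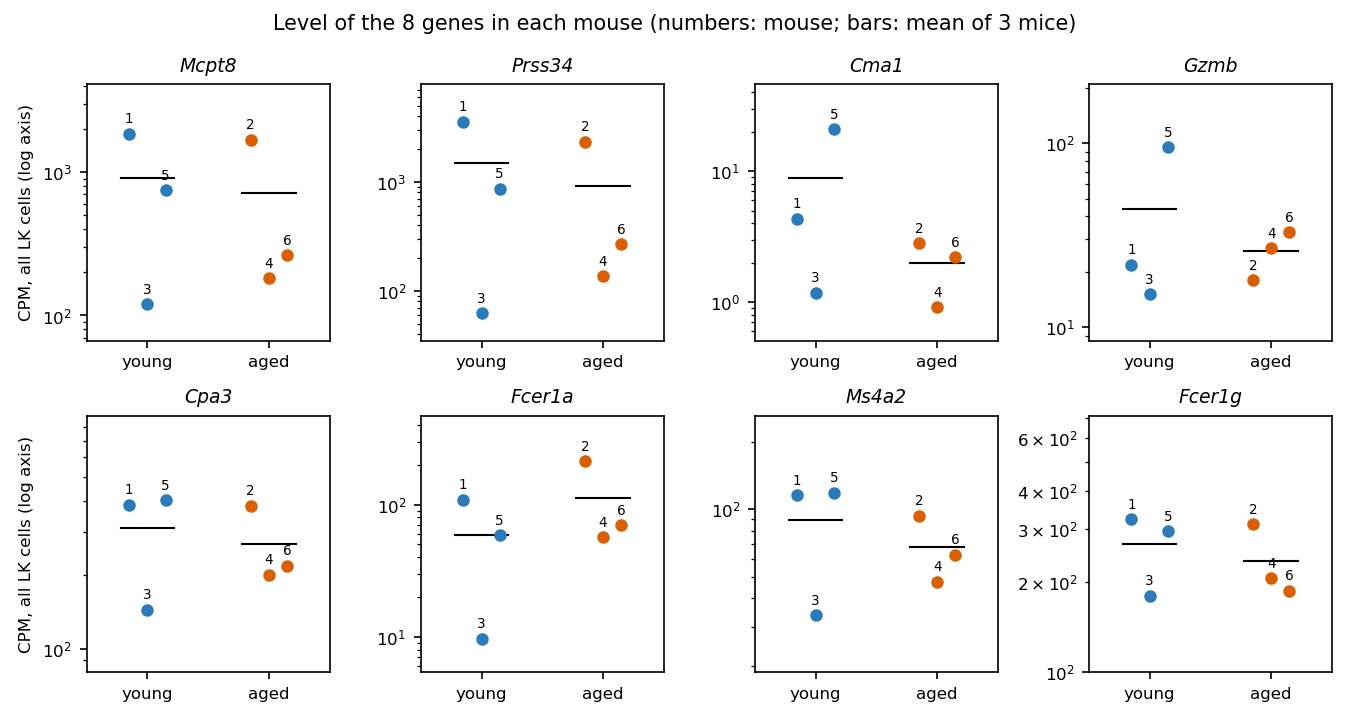
Each panel shows 1 gene, with 1 point for each mouse in CPM over all LK cells on a log axis and a bar at the mean of the 3 mice of an age. The young and aged points overlap in all 8 panels.

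Between ages, no member passed the test over all LK cells. With edgeR's quasi-likelihood test on UMI sums of each mouse and Benjamini-Hochberg adjustment over 12302 genes, 0 of 8 members were called, beside 0% of all genes tested. At an unadjusted p under 0.05 there were 371 genes, with Cma1 the only member, and DESeq2 called 12 genes and no member. The log2 fold change, aged over young, was −2.18 (SE 0.92, adjusted p = 1.00) for Cma1, −0.78 (SE 0.60) for Gzmb, −0.73 (SE 1.33) for Prss34, −0.37 (SE 1.02) for Mcpt8 and 0.91 (SE 0.76) for Fcer1a. Cpa3, Ms4a2 and Fcer1g lay between −0.42 and −0.22. With standard errors of this size, a 2-fold change of Mcpt8 or Prss34 in either direction could not be told from the spread between mice.

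The direction for the basophil proteases depended on which mice were included. Without mouse 1 the log2 fold change of Prss34 was 0.99 and that of Mcpt8 0.70, and without mouse 2 they were −2.93 and −2.06. Without mice 1 and 2, 2 mice an age remained, and Prss34 stood at −1.21 (SE 0.89) and Mcpt8 at −0.97 (SE 0.63). The pair itself, 1 young and 1 aged mouse, differed less from each other than from the other 4.

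Within mast/basophil-like cells 0 of 8 members were called as well, beside 0% of 7393 genes tested by edgeR, with 181 genes at an unadjusted p under 0.05 and 0 called by DESeq2. In edgeR's test Cma1 was at −1.72 (SE 0.69, adjusted p = 1.00) and Fcer1a at 1.24 (SE 0.53, adjusted p = 1.00), the only 2 members with an unadjusted p under 0.05. The levels behind them were 62.05 ± 71.4 CPM young against 21.9 ± 9.39 CPM aged for Cma1, and 437 ± 336 against 1078 ± 722 CPM for Fcer1a (SD, n = 3 mice an age). When genes with low counts were kept, so that 15514 genes were fitted in edgeR, both passed, with adjusted p = 9.93e-06 for Cma1 and 1.99e-05 for Fcer1a. The fold changes were nearly the same, −1.71 and 1.22, and the standard errors smaller, 0.29 and 0.21, and the cause was not tested. Over the other alternatives run in these cells neither member was called, and DESeq2 gave an adjusted p of 1.00 for both.

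The size of both values depended on single mice, but the sign did not. Without mouse 5 the log2 fold change of Cma1 was −0.31, and without mouse 2 that of Fcer1a was 0.56. On leaving out each mouse, Cma1 ran from −2.12 to −0.31 and Fcer1a from 0.56 to 1.97. Over the LK cells outside the mast/basophil-like class, the log2 fold change of Fcer1a was 1.89 (SE 0.32, adjusted p = 0.60 in edgeR). The other 6 members lay between −0.37 and −0.03 in mast/basophil-like cells.

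By shares of cells, Cma1 was the only member whose ages did not overlap. A UMI of Cma1 was found in 0.48, 0.39 and 1.67% of cells of the young mice and in 0.30, 0.31 and 0.15% of cells of the aged mice, which gave p = 0.10 in a two-sided exact permutation test, the smallest p that 3 against 3 mice allow. The ages overlapped once cells were thinned to 2000 UMIs (exact permutation p = 0.20) and when 3 UMIs were asked for (exact permutation p = 0.70). These shares rest on 42 cells. The share of all genes whose ages did not overlap was not computed, so this count does not set the members apart.

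The genes that work beside the members were tested in the same edgeR fit, in which 0% of all 7393 genes were called, so a count of 0 called in a list does not set it apart. Of the adaptors and kinases that carry the IgE receptor signal, 14 of 16 were tested in mast/basophil-like cells and 0 called, with a median log2 fold change of −0.02, where the median of all genes tested was 0.00. Lat2, an adaptor phosphorylated on receptor cross-linking, stood at 208, 183, 107, 134, 203 and 183 CPM in mice 1 to 6, with mice 3 and 4 lowest. Of the partners that share the Fcer1g or a related signalling chain 4 of 10 were tested, with a median of −0.10. Among them Tyrobp, an adaptor chain like Fcer1g, stood at 1106, 899, 340, 392, 584 and 554 CPM, and the IgG receptor Fcgr3 at 564, 480, 230, 191, 309 and 270 CPM. Both followed the order of Mcpt8 in part, with mice 1 and 2 highest.

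For granule and mediator genes 8 of 15 were tested and 0 called, with a median of −0.10. Srgn, the proteoglycan core on which granule proteases are packed, was even across mice, at 3587, 3540, 3107, 2819, 3840 and 2882 CPM. Cd63, a granule membrane protein, ranged more widely, at 3016, 2906, 1071, 1461, 2034 and 1751 CPM. Serpinb6a was the gene of that list with the lowest unadjusted p, 0.022 at a log2 fold change of −1.09 (edgeR, adjusted p = 1.00). Of cytokines and their receptors 10 of 12 were tested and 0 called (median −0.09), and of regulators 11 of 12 were tested and 0 called (median −0.20). None of those 11 regulators had a log2 fold change above 0. The share of all genes tested above 0 was not computed, and genes of the same libraries are not independent. This count therefore does not set the list apart. The GATA factor Gata2 stood at 528, 431, 288, 356, 433 and 339 CPM, with mouse 3 lowest. Lmo4, a LIM domain cofactor, stood at 1110, 936, 1445, 1123, 1428 and 1695 CPM, with mice 1, 2 and 4 lowest. Of the chymase locus 4 of 15 genes were tested and 0 called. These were Ctsg and the members Cma1, Mcpt8 and Gzmb, so this list is not separate from the members. Ctsg stood at 3530, 3869, 993, 1703, 1789 and 1623 CPM. Over all LK cells these 6 lists also had 0 genes called. Their medians ran from −0.58 (chymase locus, with its members Cma1, Mcpt8 and Gzmb) to 0.07 (receptor signalling).

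Long reads gave a further readout of the same cDNA, each mouse with 2 runs, of which run 1 had 274522 to 358453 and run 2 had 962174 to 1833762 reads on genes. The run 1 columns of mice 1 and 2 are named only by age, so they were placed as the young and the aged mouse with no other run 1. Over 3558 genes with the members left out, deviations from the mean of the mice were compared with those of the short reads. All 6 runs labelled run 1 matched the short reads of their own number best (r from 0.31 to 0.65 across genes, which are not independent replicates). Of run 2 only those labelled 1 and 2 did so, while those labelled 3, 4, 5 and 6 matched mice 6, 5, 4 and 3 best, all of the other age. Runs are named here as labelled, and no run was moved.

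Prss34 had 12510 long reads, Cpa3 2614, Fcer1g 1442, Mcpt8 1356, Fcer1a 417, Ms4a2 189, Gzmb 105 and Cma1 36. In run 1 Prss34 stood at 3451, 2879, 148, 117, 570 and 179 CPM in mice 1 to 6, with mice 1 and 2 highest and mouse 5 next, as in the short reads. In run 2 it stood at 2871, 2343, 181, 465, 162 and 148 CPM, where the run labelled 4 came after mice 1 and 2. Mcpt8 in run 1 stood at 262, 347, 23.7, 43.7, 89.4 and 83.7 CPM, also with mouse 3 lowest.

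With the runs of each label summed, edgeR called 0 of the 7 members tested between ages, beside 0% of 9244 genes, with 154 genes at an unadjusted p under 0.05 and 0 called by DESeq2. Log2 fold changes lay between −0.21 (Prss34, SE 1.06) and 0.73 (Gzmb, SE 0.56). As 4 of the runs went against their labels, run 1 alone is given beside this. There Prss34 was at −0.42 (SE 0.98), Fcer1a at 1.06 (SE 0.73), Mcpt8 at 0.35 (SE 0.67), Cpa3 at −0.19 (SE 0.23) and Fcer1g at −0.47 (SE 0.41), and none was called. Cpa3 and Fcer1g were at 0.32 and 0.05 with the runs summed, so their sign depended on run 2.

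**Figure D5:**
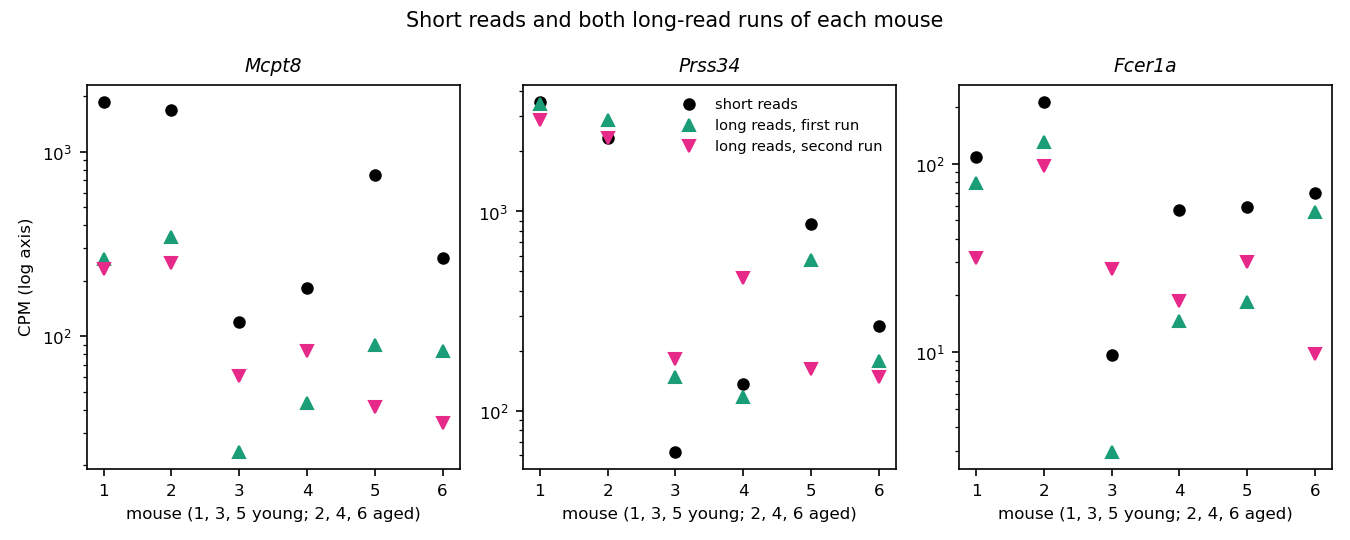
CPM of Mcpt8, Prss34 and Fcer1a on a log axis by mouse, for short reads and for both long-read runs as labelled. In mice 1 and 2 all 3 readouts of Prss34 lie between 2338 and 3543 CPM, while under label 4 run 2 lies above run 1 and under label 5 below it.

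Across the 19 clusters, the genes most like each member were found by the Pearson correlation of log2(CPM + 1) among 11258 genes, as a description. Mcpt8 was most like Rnase12 (0.93), Cdh1 (0.92) and Cyp11a1 (0.91), and Prss34 most like Cd200r3 (0.93), Alox15 (0.89) and Gm42776 (0.88). Cma1 and Gzmb were like each other (0.92) and shared Scin and Atp8b5, while Cma1 and Prss34 had a correlation of −0.02. Fcer1a and Ms4a2 led each other's list (0.96). Cpa3 was most like Ikzf2 (0.91), and Fcer1g, by contrast, most like Lgals1 (0.91), Prkcd (0.90) and Gm2a (0.90). The clusters share libraries and are not replicates.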

How the data were processed

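Single LK cells of 3 young and 3 aged mice were measured as UMI counts per gene and cell and as long-read counts per gene and run. The authors deposited both tables as raw counts, made with Cell Ranger 3.0.2 (short reads) and with minimap2 and TALON (long reads) on GRCm38, and kept cells by gene number and mitochondrial share. Libraries held 3628043 to 17585424 UMIs and 1236696 to 2112841 long reads on genes. Intervals and limits cover counting error only. Cells were clustered with Seurat 5.3.0 after integration of the mice (2000 variable genes, 20 dimensions, resolution 0.8), leaving out 378 genes, the 8 members among them, and classes were named from marker lists. A doublet caller marked 0.44% of cells and was taken not to have worked, so no cell was removed, and leaving out the 4% of cells with the highest score in each mouse was an alternative. UMIs were summed per mouse and tested with edgeR 4.0.16 (filter on low counts, TMM, quasi-likelihood test, Benjamini-Hochberg adjustment, threshold 0.05). Alternatives were DESeq2 1.42.0, no filter, library totals, a term for mice 1 and 2, other clusterings, marker gates, thinning and leaving out each mouse. Tested on simulated data, edgeR recovered 84.8% of 4-fold and 46.3% of 2-fold changes over all LK cells, and 86.4 and 26.9% in mast/basophil-like cells. The changed genes were drawn at random from all genes kept by the filter. Such rates were not computed for the members, of which Prss34, Mcpt8, Gzmb and Fcer1a spread far more between mice than the median gene. The members and gene lists were chosen with earlier results of these data known. Named were all members, up to 3 genes of highest level in each list and the 3 genes most like each member. Serpinb6a was named after its value was seen. Gene positions are from the deposited annotation and GENCODE M21.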

Additional observations from a re-analysis of the deposited data

How the results depend on the processing

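No paired analysis was possible because the young mice are numbered 1, 3 and 5 and the aged mice 2, 4 and 6, so the ages share no replicate number. Of 370 values for single members under alternatives, 355 counted as unchanged and 13 moved. Another 2 gained a call (Cma1 and Fcer1a in mast/basophil-like cells with no filter on low counts), and none of those called reversed. A log2 fold change that kept its sign and call counted as unchanged at any size, so these counts do not measure how stable the sizes were. Of the 298 log2 fold changes, 38 took the other sign with no call, 29 of them on leaving out a mouse. Over all LK cells the genes called between ages were 0, but 12 with DESeq2, 4 with a term for mice 1 and 2, 1 without mice 1 and 2 (chosen after seeing the data) and 0 to 1 on leaving out a mouse, the 1 without mouse 2. In mast/basophil-like cells 2 members and 23 genes were called with no filter, and 2 genes with the term for mice 1 and 2, with 0 on leaving out any mouse. In long reads 60 genes were called with no filter. Members whose shares of cells did not overlap between ages numbered 1, but 0 when thinned or at 3 UMIs, and 1 to 4 on leaving out a mouse: 2 without mouse 1, 4 without mouse 3 and 2 without mouse 4. The causes were not tested. Without the same share over all genes, the counts of members without overlap do not set the members apart. The share of cells with Cma1 that also had Mcpt8 was 69.0%, 37.5% at 10 UMIs of both, 88.9% with 3 UMIs of Cma1 and 1 of Mcpt8 and 58.6% without mice 1 and 2 (both chosen after seeing the data), and 64.7 to 75.0% on leaving out a mouse. With 3 mice an age and 54 to 268 mast/basophil-like cells in each, changes of 2-fold were mostly below what could be detected.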
